A study of Mus musculus with 6 samples.

Results

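The subunits of the mitochondrial respiratory chain and of the ATP synthase were followed in RAW 264.7 cells, a transformed mouse macrophage line, after 8 h with a bacterial stimulus. Members were chosen by name and by no measured value: they were all array features whose platform gene symbol begins with Nduf, Uqcr, Cox4 to Cox8 or Atp5, or is Sdha, Sdhb, Sdhc or Sdhd. The rule found 80 features of 70 genes among the 16281 features of the array. Complex I had 29 of them, complex II 2, complex III 7, complex IV 15 and complex V 20. A further 5 belonged to complex I assembly factors, whose symbols begin with Ndufaf, and 2 carried pseudogene names. Genes of the mitochondrial genome have other symbols and are not among the members.

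Treated cells had received lipopolysaccharide (LPS) at 100 ng/ml with LPS-binding protein at 100 pM for 8 h, and their counterparts had been grown for the same 8 h with neither agent. Total RNA of both was hybridised together on each of 6 two-colour arrays, so that every array yields 1 log2 ratio per feature. The arrays formed 3 numbered sets. In each set 1 array carried treated RNA in Cy5 and the other carried it in Cy3. The line is a single transformed one, which the labels also write as RAW 264.4, and they do not say whether the sets were separate cultures. The p-values below therefore rest on spread between sets, or between arrays where single arrays were fitted. The spread of each feature was moderated by that of all features, and it may be only technical. An SD beside a p-value is that of the set means before this moderation.

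The respiratory chain passes electrons from NADH (complex I) and succinate (complex II) through coenzyme Q, complex III and cytochrome c to oxygen (complex IV), and complexes I, III and IV pump protons as they do so. Complex V, the ATP synthase, makes ATP from the return flow of those protons. Nuclear genes encode all subunits of complex II and most subunits of the other complexes. Macrophages exposed to LPS are known for a shift from respiration toward glycolysis, and for the inducible nitric oxide synthase Nos2, whose product can inhibit complex IV.

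The table does not state which dye is on top of its ratios. Cy5 over Cy3 is the likely direction, since the RNA in Cy5 is the one labelled test on every array. Ratios of arrays with treated RNA in Cy3 were turned, so that each value is treated over untreated. As deposited, arrays of opposite orientation correlated with r of -0.8 to -0.428 over features, and arrays of the same orientation with r of 0.705 to 0.899. Features are not independent replicates in these correlations. Between 8.16% and 13.9% of features per array were listed at exactly 0, and these were treated as not measured. In the direction chosen, the 3 features of Il1b, an inflammatory cytokine, had log2 ratios of 3.33 to 4.04, and the 2 features of Nos2 had log2 ratios of 1.13 and 1.21, each with an adjusted p under 0.05 in limma. Because LPS is known to induce these genes, their sign was also taken into account for the direction, and it is no independent check of it. No channel intensities were used, so neither the level of a gene nor the presence of macrophage markers can be read from these values, and the number of arrays limits the precision. A ratio of total RNA also cannot tell less RNA per cell from fewer cells that hold it.

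Of the 80 member features, 71 (64 genes) were measured on both arrays of at least 2 sets and entered the fit of all 14343 such features, and 9 did not. Respiratory chain and ATP synthase features moved little in treated cells. Their log2 ratios ran from -0.29 to 0.14, with a median of -0.09 against -0.01 for all features. Among all features, 21.7% had a log2 ratio larger in size than the largest of any member. Of the 71, 9 fell and 0 rose when limma was run on the 3 set means with a Benjamini-Hochberg threshold of 0.05. That is 12.7% lower, against a background of 15.6% lower and 17.1% higher among all features, so in this fit the share of members that fell was near the background. At an unadjusted p under 0.05, 23 members (32.4%) were lower and 0 higher, against 20.6% lower and 21.5% higher among all features. The sign leaned one way, with 58 of 71 members (81.7%) below 0, against 51.6% of all features. The lean was not equal in all arrays: 56.9% of members were below 0 on arrays with treated RNA in Cy3 alone, 78.7% with treated RNA in Cy5 alone, and 67.7% without set 2. Without set 3, 0 of 67 members passed, against 9.93% of all features that were lower, in a fit with 1 residual degree of freedom fewer for features measured in all sets. The log2 ratios of the 9 members were then between -0.27 and -0.15, against -0.29 and -0.17 with all sets. Without set 1 and without set 2, in fits with the same loss of a degree of freedom, 8 and 7 members passed. Shares over all features are not given for those fits. Every call was lost only without set 3, and the cause was not tested. The count also depended on how arrays entered the fit. With the 6 arrays as separate replicates and a dye term, 20 of 74 members fell (27%), against 16.8% of all features. With the set number as a replicate block, 18 of 74 fell (24.3%), against 16% of all features. In both of these fits the share of members that fell was above the background, and 0 members rose.

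Complex I, the entry point for NADH, held the most members. Of its 29 features, all fitted, 23 were below 0, and the median log2 ratio was -0.11. Among them 4 fell and 0 rose (13.8% lower, against 15.6% of all features). Ndufa5, an accessory subunit of the matrix arm, had log2 ratios of -0.32, -0.41 and -0.39 in sets 1 to 3 where treated RNA was in Cy5, and of -0.02, -0.06 and -0.03 where it was in Cy3. All 6 were below 0, and the Cy5 values lay apart from the Cy3 values. It fell by 0.21 ± 0.03 on the log2 scale (SD, n = 3 sets; limma's adjusted p = 0.0195), a difference of -13.3%. Ndufb2, a subunit of the membrane arm, stood at -0.15, -0.18 and -0.08 with treated RNA in Cy5 and at -0.23, -0.32 and -0.16 with treated RNA in Cy3. Both orientations were lower here and their ranges overlapped. Its log2 ratio was -0.19 ± 0.06 (adjusted p = 0.0362 in limma).

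Ndufb10, another membrane arm subunit, stood at -0.25, -0.36 and -0.38 with treated RNA in Cy5 and at 0.10, -0.21 and -0.07 with treated RNA in Cy3, and averaged -0.20 ± 0.11 (adjusted p = 0.0489 in limma). Every Cy5 value of Ndufb10 lay below every Cy3 value, and 1 of its 6 arrays, the Cy3 array of set 1, was above 0. Ndufab1, the mitochondrial acyl carrier protein, had 4 features, whose log2 ratios ran from -0.22 to 0.02. Feature 8298 of Ndufab1 was the one that fell, with log2 ratios of -0.30, -0.56 and -0.52 with treated RNA in Cy5, against 0.18, -0.08 and -0.03 with treated RNA in Cy3. Its log2 ratio was -0.22 ± 0.14 (adjusted p = 0.0475 in limma), and on the Cy3 arrays alone it was 0.02. The other 3 features of Ndufab1 stood at -0.07, -0.05 and 0.02, with adjusted p of 0.525 to 0.818, so the gene as a whole is not settled.

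**Figure D1:**
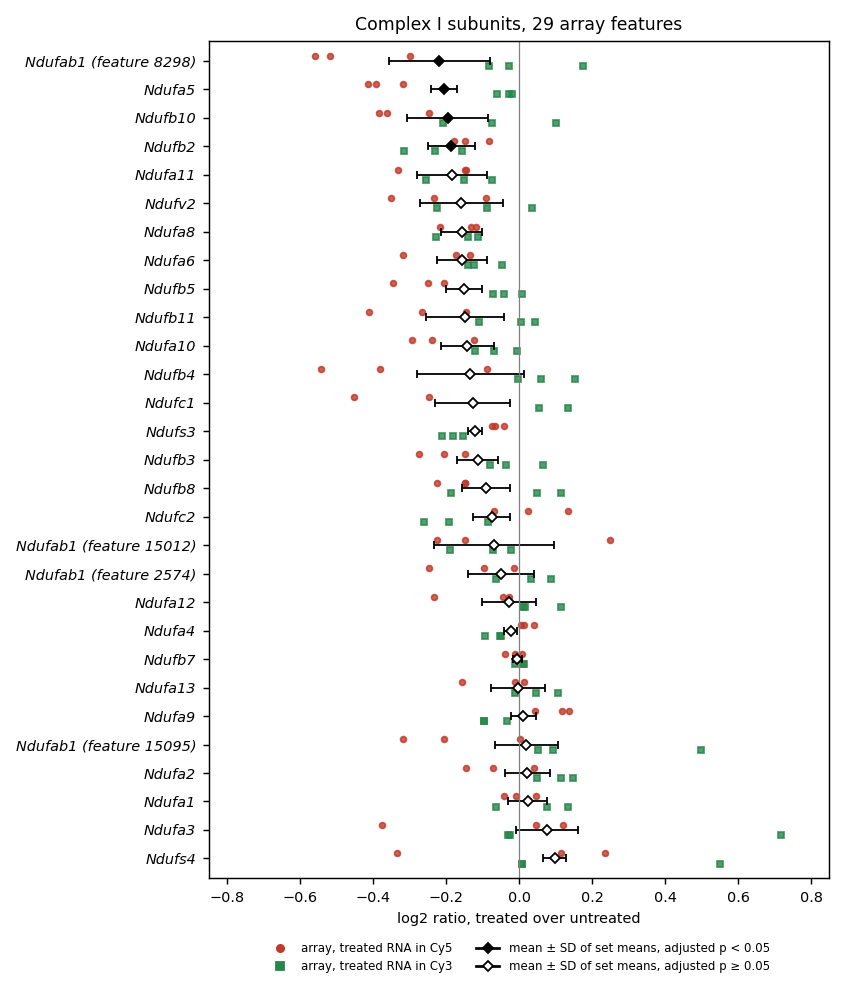
Log2 ratios of treated over untreated RNA (x axis) for the 29 complex I features (rows). Red circles are the 3 arrays whose Cy5 channel held treated RNA and green squares the 3 whose Cy3 channel held it, and diamonds with bars are the mean and SD of the set means, filled where the adjusted p was under 0.05. The 4 filled diamonds lie between -0.22 and -0.19. For Ndufa5, Ndufb10 and Ndufab1 (feature 8298) the red circles lie left of the green squares.

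The remaining complex I subunits did not pass. In the matrix arm, which takes electrons from NADH, the 8 features had a median log2 ratio of -0.07, and 5 of them were below 0. The core iron-sulfur subunit Ndufv2 stood at -0.16 ± 0.11 (adjusted p = 0.0961 in limma), and the core subunit Ndufs3 at -0.12 ± 0.02 (adjusted p = 0.101) with all 6 arrays below 0. Ndufs4, needed for a stable matrix arm, had the highest log2 ratio of the complex, 0.10 ± 0.03 (adjusted p = 0.179). Its arrays did not share that level: they stood at 0.24, -0.33 and 0.11 with treated RNA in Cy5, and at 0.01, 0.55 and 0.01 with treated RNA in Cy3. Set 2 thus held both its lowest and its highest value, and the set mean of 0.11 came from values of opposite sign. Ndufa3, in the membrane arm, showed the same spread in set 2, with -0.38 in Cy5 and 0.72 in Cy3, and averaged 0.08 ± 0.08 (adjusted p = 0.347).

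In the membrane arm, which pumps protons, 14 of 16 features were below 0 (87.5%, against 51.6% of all features), with a median of -0.13. Of the 16, 2 fell (12.5%, against 15.6% of all features). Ndufa11 (-0.18 ± 0.10, adjusted p = 0.0514 in limma) and Ndufa8 (-0.16 ± 0.06, adjusted p = 0.0575) lay just beyond the threshold, each with all 6 arrays below 0. At the other end, Ndufb7 had array values between -0.04 and 0.01 and a log2 ratio with an unadjusted 95% interval of -0.12 to 0.11. Ndufa1, and Ndufa2 of the matrix arm, stood at 0.02 each, with intervals of -0.10 to 0.15. Ndufa13, also known as GRIM-19, had an interval of -0.13 to 0.13. Ndufa4, which is named for complex I but was later found in complex IV, stood at -0.02 ± 0.02. The intervals of these 5 genes reached at most 0.15 in either direction, which bounds a change and does not show that there was none.

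Complex II, succinate dehydrogenase, oxidises succinate in both the tricarboxylic acid cycle and the chain, and was represented by 1 feature each of 2 subunits. Sdhb, the iron-sulfur subunit, had log2 ratios of -0.23, -0.19 and -0.30 with treated RNA in Cy5 and of -0.30, -0.20 and -0.19 with treated RNA in Cy3. All 6 arrays were below 0, and the orientations overlapped throughout. It fell by 0.23 ± 0.04 on the log2 scale (limma's adjusted p = 0.0123), a difference of -14.9%. Sdhc, a membrane anchor that binds haem, stood at 0.09, 0.22 and 0.10 with treated RNA in Cy5 and at -0.15, -0.21 and -0.20 with treated RNA in Cy3. Its sign went with the dye on every array, and the set means averaged -0.02 ± 0.02 (adjusted p = 0.746), with an interval of -0.14 to 0.09. The interval of Sdhb was -0.35 to -0.12, and the difference between these subunits was not tested.

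Complex III, which passes electrons from coenzyme Q to cytochrome c, had 7 fitted member features. None of these was called in either direction, against 15.6% lower and 17.1% higher among all features. Of the 7, 5 were below 0 (71.4%, against 51.6% of all features), and the median was -0.09. The complex III subunit gene Cyc1, which lies outside the naming rule, did fall and is given with the carriers below. Uqcrfs1, the Rieske iron-sulfur protein, stood at -0.07, 0.14 and 0.03 with treated RNA in Cy5, against -0.40, -0.34 and -0.25 with treated RNA in Cy3. The orientations did not overlap, and its log2 ratio was -0.15 ± 0.08 (adjusted p = 0.084 in limma). The core protein Uqcrc1 was similar in pattern, at -0.02, 0.03 and 0.06 with treated RNA in Cy5 and at -0.28, -0.31 and -0.21 with treated RNA in Cy3, and averaged -0.12 ± 0.04 (adjusted p = 0.109). Both passed on the Cy3 arrays alone, with adjusted p of 0.0348 for Uqcrfs1 and 0.0477 for Uqcrc1. Uqcr11, a small accessory subunit, was below 0 on all 6 arrays and averaged -0.14 ± 0.06 (adjusted p = 0.0833).

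Uqcrb, an accessory subunit at the coenzyme Q site, had the highest log2 ratio of all members, 0.14 ± 0.13 (adjusted p = 0.145 in limma). It stood at 0.17, 0.28 and -0.04 with treated RNA in Cy5 and at 0.24, 0.19 and 0.03 with treated RNA in Cy3, so that sets 1 and 2 were higher in both orientations and set 3 was not. The hinge protein Uqcrh stood at 0.03 ± 0.06. The 2 features of Uqcrq gave -0.09 and -0.06.

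Complex IV, cytochrome c oxidase, is built around subunits of the mitochondrial genome with smaller nuclear ones around them, some of which have separate forms for heart and muscle. Of its 15 features 11 were fitted, 2 fell and 0 rose (18.2% lower, against 15.6% of all features), and the median was -0.04. Cox7a2l, also known as SCAF1, which joins complexes III and IV into supercomplexes, stood at -0.18, -0.17 and -0.22 with treated RNA in Cy5 and at -0.17, -0.08 and -0.18 with treated RNA in Cy3. All 6 arrays lay below 0 within a narrow range, and its log2 ratio was -0.17 ± 0.04 (adjusted p = 0.0426 in limma).

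Cox7a1, the heart and muscle form of subunit 7a, had 2 features. Feature 1802 of Cox7a1 stood at -0.14, -0.78 and -0.32 with treated RNA in Cy5 and at -0.27, 0.12 and -0.06 with treated RNA in Cy3, and fell by 0.24 ± 0.08 (adjusted p = 0.0157 in limma). Feature 11546 of Cox7a1 averaged -0.19 ± 0.14 (adjusted p = 0.077). The lowest and the highest array of feature 1802, -0.78 and 0.12, both belonged to set 2. With the 6 arrays as separate replicates feature 1802 lost its call (adjusted p = 0.104) and feature 11546 gained one (adjusted p = 0.0452). Cox7a2, the widely expressed form, had a log2 ratio of -0.02 ± 0.09 (adjusted p = 0.822), with -0.05, -0.33 and -0.29 in Cy5 and 0.22, 0.21 and 0.12 in Cy3.

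Among the 6 fitted features of the common nuclear subunits, 0 passed, and the median was -0.03. Cox5b had the lowest log2 ratio of these, -0.13 ± 0.10 (adjusted p = 0.134 in limma). Cox7b stood at 0.00 ± 0.06, Cox6b1 at -0.04 ± 0.04 and Cox6c at 0.02 ± 0.05. Cox8b, another heart and muscle form, averaged 0.04 ± 0.04 although its 6 arrays ran from -0.39 to 0.51. Cox4i1, Cox5a, Cox6a1 and Cox8a, all widely expressed, were not fitted because of values of exactly 0. Their measured values ran from -0.17 to 0.05 for Cox4i1 (3 arrays), from -0.10 to -0.02 for Cox5a (2 arrays), from -0.23 to 0.12 for Cox6a1 (4 arrays) and from -0.04 to 0.03 for Cox8a (3 arrays).

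**Figure D2:**
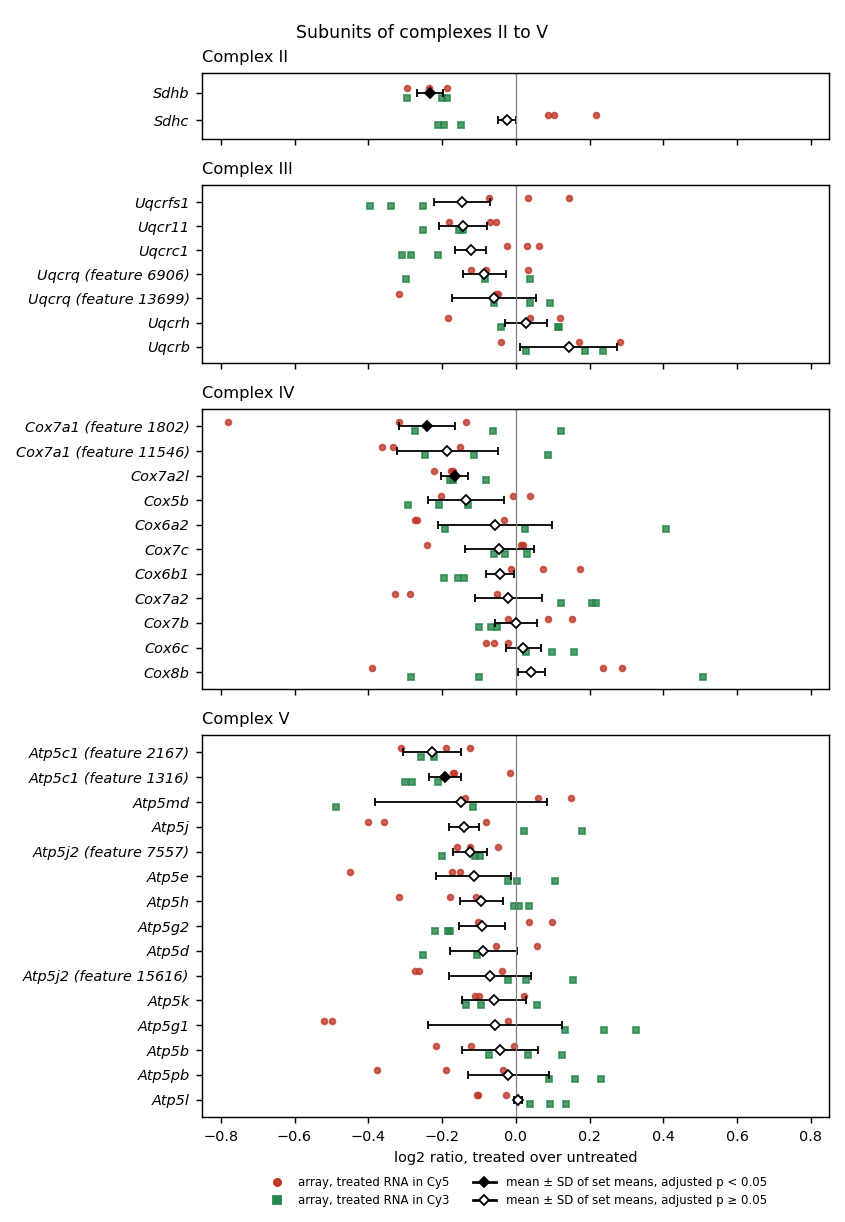
Log2 ratios of treated over untreated RNA (x axis) for the fitted features of complexes II, III, IV and V (rows in 4 panels). Red circles are arrays with treated RNA in Cy5, green squares arrays with treated RNA in Cy3, and diamonds with bars the mean and SD of the set means, filled where the adjusted p was under 0.05. Sdhb, Cox7a1 (feature 1802), Cox7a2l and Atp5c1 (feature 1316) are the filled ones, while in Sdhc, Cox7a2, Atp5g1 and Atp5pb circles and squares lie on opposite sides of 0.

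Complex V consists of the F1 head, which makes ATP, the rotor ring in the membrane and a stalk that holds the head in place. Of its 20 features 15 were fitted, 14 of them below 0, with a median of -0.09. Among the fitted, 1 fell and 0 rose (6.67% lower, against 15.6% of all features). Atp5c1, the gamma subunit of the rotor shaft, had 2 features of like value. Feature 1316 of Atp5c1 stood at -0.17, -0.02 and -0.17 with treated RNA in Cy5 and at -0.30, -0.28 and -0.21 with treated RNA in Cy3, all below 0, and fell by 0.19 ± 0.04 (adjusted p = 0.027 in limma). Feature 2167 of Atp5c1 had 1 value of exactly 0 and 5 values between -0.31 and -0.12. Its log2 ratio over 2 sets was -0.23 (adjusted p = 0.0561), and the call changed with the normalization, since it passed after quantile normalization.

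The other parts of the head were lower by less, if at all. The catalytic beta subunit gene Atp5b stood at -0.04 ± 0.10 (adjusted p = 0.62 in limma), Atp5e at -0.11 ± 0.10 (adjusted p = 0.188) and 1 feature of Atp5d at -0.09 over 2 sets. The alpha subunit gene Atp5a1 was listed at 0 on all 6 arrays. In the stalk, Atp5h stood at -0.09 ± 0.06, Atp5pb at -0.02 ± 0.11 and 1 feature of Atp5j at -0.14 over 2 sets, and none of these passed. Atp5o had a single measured value, -0.11.

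Features of the ring and its neighbours in the membrane also gave no call. Atp5g2, which encodes the ring subunit c, stood at -0.09 ± 0.06 (adjusted p = 0.229 in limma). Atp5g1, a second gene of the same subunit, had 2 features that went opposite ways with the dye. Feature 13735 of Atp5g1 stood at -0.02, -0.52 and -0.50 with treated RNA in Cy5 and at 0.33, 0.24 and 0.13 with treated RNA in Cy3, and averaged -0.06 ± 0.18. Feature 3677 of Atp5g1 stood at 0.25, 0.33 and 0.31 in Cy5 and at -0.36 on the only measured Cy3 array. The ranges of both orientations did not overlap in either feature. Atp5l had the smallest set spread of the complex, 0.005 ± 0.011, and Atp5md, also known as DAPIT, stood at -0.15 over 2 sets.

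The complexes could be set beside each other by their medians. Complex I had a median log2 ratio of -0.11, complex II of -0.13, complex III of -0.09, complex IV of -0.04 and complex V of -0.09. In set 1 these medians were -0.06, -0.15, -0.02, -0.03 and -0.06 for complexes I to V, in set 2 -0.15, -0.10, -0.13, -0.06 and -0.12, and in set 3 -0.09, -0.14, -0.07, -0.01 and -0.14. All 15 were below 0, but the order of the complexes was not the same in any 2 sets. The SD of the set medians was 0.0253 to 0.0558, as large as most of the gaps between complexes. On the Cy5 arrays alone the medians were -0.15, -0.05, -0.01, -0.07 and -0.12 for complexes I to V, and on the Cy3 arrays alone -0.02, -0.21, -0.11, -0.07 and 0.01. The order of the complexes thus differed between the orientations, and differences between complexes were not tested.

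**Figure D3:**
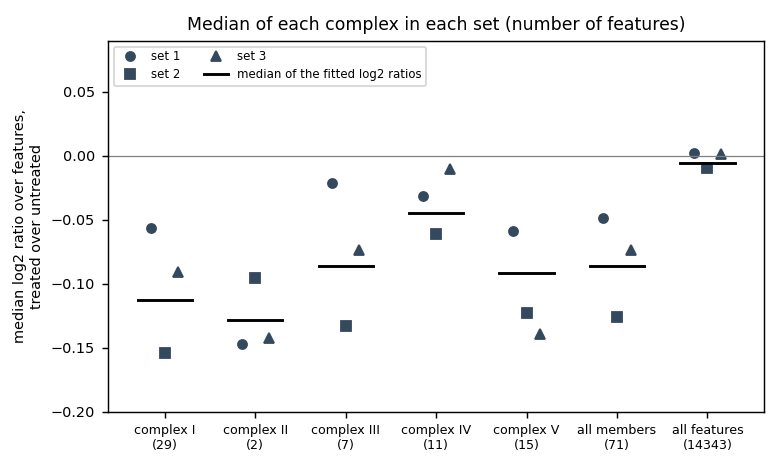
Median log2 ratio of treated over untreated RNA (y axis) over the fitted features of each complex, of all members and of all features, with the number of features in brackets. Symbols are the 3 sets and the bar is the median of the fitted log2 ratios. The bars of the complexes lie between -0.13 and -0.04, against -0.01 for all features, and the sets of one complex spread as widely as the complexes differ.

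The 5 complex I assembly factors, which help to build the complex and are absent from the finished one, included the lowest member. Ndufaf3 stood at -0.19, -0.19 and -0.29 with treated RNA in Cy5 and at -0.30, -0.41 and -0.36 with treated RNA in Cy3, all below 0. It fell by 0.29 ± 0.04 on the log2 scale (limma's adjusted p = 0.00551), a difference of -18.2%, and kept its call in 12 of 13 alternatives. The others did not pass: Ndufaf4 stood at -0.08 ± 0.01, Ndufaf2 at -0.07 ± 0.06, Ndufaf5 at 0.09 ± 0.13, and Ndufaf7 at -0.15 over 2 sets. The 2 features with pseudogene names, Ndufs5-ps and Atp5k-ps1, stood at -0.06 and -0.03. Whether they also bind RNA of their parent genes was not tested.

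In many members the dye orientations lay further apart than the log2 ratio was large. Whether this came from the dye or from noise of single arrays was not tested. Of the 65 members measured on all 6 arrays, 13 (20.0%) were below 0 on every array and 0 were above 0 on every array, against 16.8% and 18.1% of all features measured on all 6. In 10 members (15.4%) all 3 Cy5 arrays had one sign and all 3 Cy3 arrays the other, against 10.7% of all features. The 3 largest such differences, Cy5 mean minus Cy3 mean, were -0.58 in Atp5g1 (feature 13735), -0.40 in Cox7a2 and -0.36 in Atp5pb, while Sdhc had the largest in the other direction, 0.32. The deviation of each orientation from the log2 ratio was larger than the log2 ratio itself in 39 of 71 members (54.9%), against 42.1% of all features. Feature 10615 of Atp5j was measured on set 1 only, at -2.57 in Cy5 and 2.64 in Cy3, and was listed at 0 elsewhere.

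**Figure D4:**
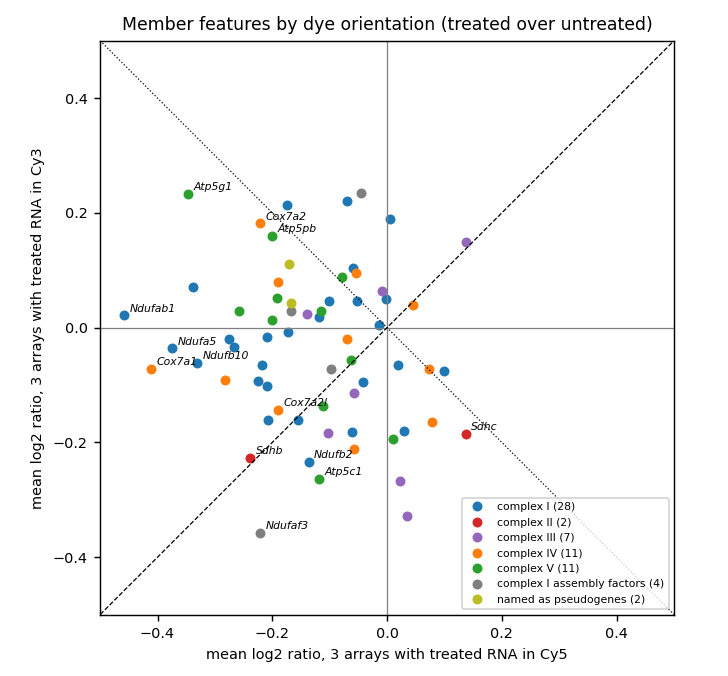
Mean log2 ratio of treated over untreated RNA with treated RNA in Cy5 (3 arrays, x axis) and in Cy3 (3 arrays, y axis), for the 65 members measured on all 6 arrays, coloured by complex. The dashed line marks equal values and the dotted line values of opposite sign. Sdhb and Cox7a2l lie near the dashed line at lower left, while Atp5g1, Cox7a2, Atp5pb and Sdhc lie near the dotted one.

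Genes that serve the chain, most of them outside the member list, were counted in the same fit. Their lists were chosen by function, and the background shares were 15.6% lower and 17.1% higher. Of 24 features of assembly factors, 5 of them members, 5 fell and 4 rose, and the median was -0.08. Cox17, the copper chaperone of complex IV, had the largest rise, with 0.54, 0.42 and 0.52 in Cy5 and 0.49, 0.56 and 0.60 in Cy3, or 0.52 ± 0.04 (adjusted p = 0.000487 in limma). The 2 features of Ttc19, which acts in complex III upkeep, rose by 0.28 and 0.33. Ecsit, a complex I assembly factor that also takes part in Toll-like receptor signalling, had 1 feature that fell by 0.33 ± 0.06 and another at 0.11 ± 0.23, so its direction is unsettled. Lyrm7, a complex III factor, fell by 0.29 ± 0.08.

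Among 18 fitted features of cytochromes, carriers and coenzyme Q synthesis, 5 fell and 2 rose, at a median of -0.08. Both rises were Coq10b, a coenzyme Q binding protein, at 1.03 ± 0.03 and 1.15 ± 0.02 (adjusted p of 3.13e-05 and 1.93e-05 in limma), each above every member of the chain. Dhodh, which feeds electrons into coenzyme Q during pyrimidine synthesis, fell by 0.43 ± 0.07 (adjusted p = 0.00146), and Slc25a4, an ATP/ADP carrier, had 1 feature that fell by 0.23 and 1 at -0.09. Cyc1, a complex III subunit outside the naming rule, fell by 0.19 ± 0.10 (adjusted p = 0.0475), and cytochrome c itself, Cycs, stood at 0.16 ± 0.05 (adjusted p = 0.0521).

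Of 12 features for expression of the mitochondrial genome and its regulators, 2 fell and 2 rose, at a median of -0.04. Nrf1, nuclear respiratory factor 1, which activates many respiratory chain genes, stood at -0.50, -0.41 and -0.32 with treated RNA in Cy5 and at -0.44, -0.46 and -0.44 with treated RNA in Cy3. All 6 arrays were lower and the orientations overlapped, and it fell by 0.43 ± 0.05 (adjusted p = 0.00115 in limma). Gabpa, the DNA-binding subunit of nuclear respiratory factor 2, rose by 0.30 ± 0.11 (adjusted p = 0.0103). Gabpb1, which encodes another subunit of that factor, was below 0 on all 6 arrays and did not pass, at -0.18 ± 0.14 (limma's adjusted p = 0.0876). Slirp, which stabilises mitochondrial mRNA, rose by 0.50 ± 0.11, and the mitochondrial DNA polymerase gene Polg fell by 0.26 ± 0.03.

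In the tricarboxylic acid cycle 4 of 14 features fell and 0 rose, at a median of -0.11, the lowest of these lists. The fall of Fh1, fumarate hydratase, was 0.31 ± 0.02 (adjusted p = 0.00382 in limma), and that of Idh3a, a subunit of isocitrate dehydrogenase, was 0.21 ± 0.07 in 1 feature, with the other at -0.23 over 2 sets (adjusted p = 0.064). Mitochondrial ribosome genes went both ways, with 15 of 68 features lower and 8 higher at a median of -0.02: Mrps6 fell by 0.56 ± 0.08 and Mrpl34 by 0.47 ± 0.04, while Mrpl30 rose by 0.57 ± 0.10 and Mrpl52 by 0.44 ± 0.11. Glycolysis had 14 fitted features besides those of Gapdh, of which 3 rose and 1 fell. Hk2, a hexokinase, rose by 0.67 ± 0.11 and Slc2a1, the glucose transporter GLUT1, by 0.53 ± 0.14, whereas Pfkm fell by 0.38 ± 0.17. Gapdh, present as 25 features, had 15 that were fitted with a median of 0.04, and 1 of them passed, at 0.65.

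**Figure D5:**
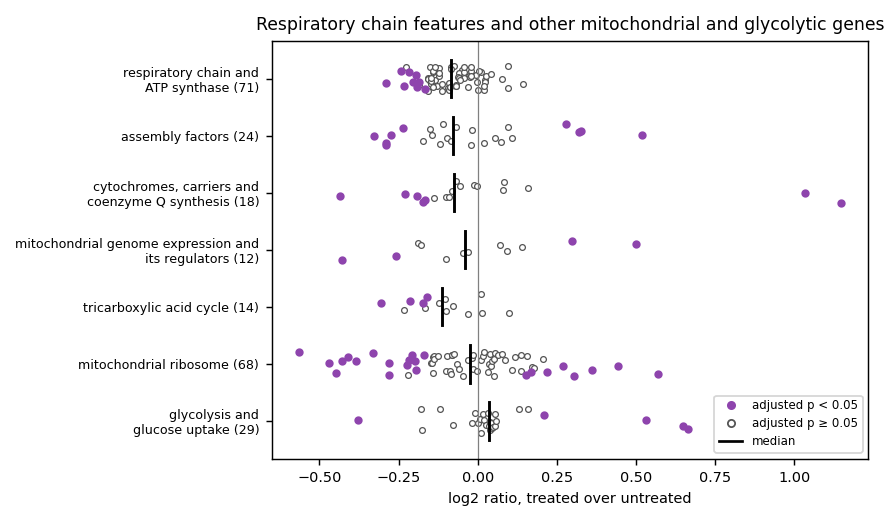
Log2 ratios of treated over untreated RNA (x axis) of the fitted features of the respiratory chain and ATP synthase and of 6 other lists (rows, number of features in brackets). Purple points had an adjusted p under 0.05, open points did not, and the bar is the median. Members lie between -0.29 and 0.14, whereas Coq10b, at 1.03 and 1.15, lies far to the right.

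Promoters of many respiratory chain genes are known to bind nuclear respiratory factor 1, GABP and YY1, and the members' promoters were searched for letters these factors recognise. RefSeq promoters of build GRCm38.p6, 250 bases before to 50 after a gene's start, were found for 60 of the 70 genes. Searched on both strands, with overlaps between motifs allowed, the site of nuclear respiratory factor 1 (GCGC, any base, T and GCGC again) occurred in 14 of 60 member genes (23.3%), against 5.19% of all 27025 genes with a promoter, noncoding ones included. The letters CCGGAAG, bound by GABP and other ETS factors, occurred in 14 of 60 (23.3%), against 9.93%, and AAGATGGC of YY1 in 8 (13.3%), against 3.19%. At least 1 of the 3 was found in 53.3% of member genes, against 16.4% of all genes. Among the 9 genes with a feature that fell, 2 held the first, 1 the second and 0 the third. A match describes letters only and says nothing about binding in these cells.

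Shown in full are promoters of Sdhb, Ndufa5 and Atp5c1, the genes with a feature that fell whose promoters held a match, and of Ndufs4, which had the highest log2 ratio of complex I. Capitals mark the matched letters, read on the gene's strand from 5′ to 3′. Sdhb lies at chr4:140961021-140961320 on the plus strand, Ndufa5, shown from the upstream of its listed starts, at chr6:24527641-24527940, Atp5c1 at chr2:10080383-10080682 and Ndufs4 at chr13:114388045-114388344, all 3 on the minus strand. Atp5c1 has another listed start, whose window at chr2:10080461-10080760 held none of the searched letters. Sdhb holds CCGGAAG, Ndufa5 and Atp5c1 the nuclear respiratory factor 1 letters on the opposite strand, and Ndufs4 the YY1 letters.
Sdhb: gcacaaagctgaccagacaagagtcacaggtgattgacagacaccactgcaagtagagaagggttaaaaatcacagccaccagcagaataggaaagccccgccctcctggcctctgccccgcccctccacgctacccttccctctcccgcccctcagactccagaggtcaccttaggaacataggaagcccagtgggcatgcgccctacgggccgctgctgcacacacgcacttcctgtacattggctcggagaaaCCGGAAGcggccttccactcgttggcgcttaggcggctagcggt
Ndufa5: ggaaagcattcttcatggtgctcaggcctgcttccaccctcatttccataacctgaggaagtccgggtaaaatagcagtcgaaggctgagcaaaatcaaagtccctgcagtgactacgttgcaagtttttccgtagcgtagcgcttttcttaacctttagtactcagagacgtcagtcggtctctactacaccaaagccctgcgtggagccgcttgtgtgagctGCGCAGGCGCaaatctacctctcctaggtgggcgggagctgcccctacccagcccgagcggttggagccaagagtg
Atp5c1: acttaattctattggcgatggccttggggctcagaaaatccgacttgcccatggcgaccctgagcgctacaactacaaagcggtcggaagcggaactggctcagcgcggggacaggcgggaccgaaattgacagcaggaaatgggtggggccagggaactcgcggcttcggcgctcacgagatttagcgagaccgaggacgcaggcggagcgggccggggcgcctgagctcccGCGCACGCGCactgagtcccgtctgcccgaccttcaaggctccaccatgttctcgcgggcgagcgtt
Ndufs4: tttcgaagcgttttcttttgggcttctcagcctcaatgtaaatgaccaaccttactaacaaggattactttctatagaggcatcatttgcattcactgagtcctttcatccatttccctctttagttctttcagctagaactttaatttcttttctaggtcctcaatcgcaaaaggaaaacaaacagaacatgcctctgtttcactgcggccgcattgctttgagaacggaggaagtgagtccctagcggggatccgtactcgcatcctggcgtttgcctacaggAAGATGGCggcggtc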

How the data were processed

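The deposited value table held 1 log2 ratio per feature and array, made by the authors. Its base, 2, was read from the values. For the scanner software, background correction, dye normalization and direction of the ratio, nothing is stated: they are not given in sources used here. Features were named through the platform annotation, and all 80 member features matched a RefSeq gene.

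Ratios of arrays with treated RNA in Cy3 were turned, exact 0 was treated as not measured, and both arrays of a set were averaged. Features with at least 2 complete sets were fitted with limma 3.58.1 in R 4.3.3 (lmFit, eBayes; residual df of 2 with 3 sets), with Benjamini-Hochberg adjustment over all 14343 features and a threshold of 0.05. Intervals are unadjusted 95% intervals of that fit. The fit was tested on simulated data with noise independent between arrays. Such data cannot show how the p-values hold where arrays of a set deviate together. Alternatives kept zeros, averaged features by gene, fitted the 6 arrays singly with and without a set block, changed the normalization, used 1 dye orientation, or left out a set. Named were, per complex, the 3 highest and 3 lowest log2 ratios, all members that passed, members not fitted, and the 2 largest rises and falls of each other list. Further members and genes of the other lists were named after their values were seen. The members and lists were chosen with earlier results of these data known.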

Additional observations from a re-analysis of the deposited data

Results flagged for a closer look

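In 10 member features all 3 arrays with treated RNA in Cy5 had one sign and all 3 arrays with treated RNA in Cy3 had the other, so the apparent direction of the treatment went with the dye. The difference between orientations was not tested. As the Cy5 mean minus the Cy3 mean of the log2 ratio, it was -0.58 in Atp5g1 (feature 13735), -0.40 in Cox7a2, -0.36 in Atp5pb, -0.28 in Atp5k-ps1, -0.17 in Atp5l, and -0.15 in both Ndufa12 and Cox6c. It ran the other way in Sdhc, at 0.32, in Ndufa9, at 0.17, and in Ndufa4, at 0.0845.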

How the results depend on the processing

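Over the named members, 309 alternative values kept their side of the threshold, 32 lost the call, 16 gained one and 1 reversed. The reversed value was that of Ndufab1 (feature 8298), at 0.0214 on the Cy3 arrays alone. A change of sign was counted as reversed only where either fit gave a call. The 309 therefore include changes of sign, such as Sdhc, at -0.02 in the main fit and 0.14 on the Cy5 arrays alone. Members that fell numbered 9, against 20 with 6 arrays and no replicate block, 18 with the replicate block, 4 on the Cy3 arrays alone, and 0 to 8 when a set was left out. The settings fitted different numbers of features, so these are counts and not shares. Counts over all features follow below for the Cy3 arrays alone and for a set left out. Averaging both arrays of a set takes the set number as joining them. As deposited, deviations of the arrays of a set from their orientation mean correlated at 0.256, 0.212 and 0.0999 over features. A positive value there means deviation toward the same dye, which is opposite in sign once the ratios are turned. The block's consensus correlation, from turned ratios, was 0.124. These measures thus point opposite ways, and whether the numbers pair the arrays is not settled. On the Cy5 arrays alone 1 member rose, Atp5g1 (feature 3677). Of all features, 4690 passed, and 2956 to 4822 with a set left out. Those that rose ranged from 1621 to 2446 and those that fell from 1335 to 2376, with 1441 that fell on the Cy3 arrays alone. In the other lists 32 fell, the member Ndufaf3 among them, against 16 on the Cy3 arrays alone and 13 to 28 with a set left out. The Cy3 arrays alone gave medians of -0.0206 for complex I, -0.206 for complex II, -0.072 for complex IV and 0.0135 for complex V, and the Cy5 arrays alone gave -0.0508 for complex II and -0.00928 for complex III. With a set left out, the complex IV median ranged from -0.0787 to -0.0477 and that of complex V from -0.123 to -0.0427. The cause was not tested. No signal over background was used, so what dim features limit is not known here.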
